A study of Saccharomyces cerevisiae with 12 samples.

Results

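The genes for the proteins of the yeast cytosolic ribosome are described here by the nucleosomes that cover them and their upstream regions. They were taken by symbol, as nuclear genes named RPL or RPS with a number, together with the stalk genes RPP0, RPP1A, RPP1B, RPP2A and RPP2B. This gave 137 of 6002 nuclear protein-coding genes: 76 of the large subunit, 56 of the small subunit and 5 of the stalk. Among them 118 form 59 pairs of duplicated genes and 19 exist as a single copy.

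Each cytosolic ribosome holds 1 copy of nearly every ribosomal protein, and growing yeast spends a large share of its transcription on these genes. Most of their promoters are bound by Rap1, a general regulatory factor that opens chromatin, which recruits Fhl1 and its coactivator Ifh1, and many also bind the HMG protein Hmo1. Their upstream regions are known as wide stretches with few nucleosomes.

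MNase-seq, the sequencing of DNA that micrococcal nuclease leaves undigested because nucleosomes cover it, was applied to 12 samples of Saccharomyces cerevisiae, all of the haploid laboratory strain BY4741 and grown in YPD at mid-log phase. There were 3 wild-type groups (WT1, WT2 and WT3) and 3 mutants of Ioc3, a subunit of the ISW1a chromatin remodeler: a knockout (Ioc3-KO) and, as point mutants, Ioc3-R739E/R742E with Ioc3-Q251K/D252K. Each group had 2 biological replicates, which the authors joined in 1 list of nucleosomes, called a pool here. Wild type is therefore n = 3 pools, each Ioc3 genotype is n = 1 pool, and all 3 genotypes are compared with the same wild-type pools. Where values of the 3 mutants follow each other without names, the order is Ioc3-KO, then Ioc3-R739E/R742E, then Ioc3-Q251K/D252K. The labels do not give whether a mutant was 1 clone, or which of the wild-type pools belongs with which mutant.

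The pools listed 76013 to 77652 nucleosomes with 10282804 to 10350515 reads. The entries from 600 bp before the start codon to the stop codon of ribosomal protein genes numbered 1165 to 1189 per pool and held 111008 to 114671 reads. IOC3 itself held 1012, 1026 and 1087 reads per kb of coding region in WT1, WT2 and WT3, 349 in Ioc3-KO, 996 in Ioc3-R739E/R742E and 942 in Ioc3-Q251K/D252K, so the knockout pool alone was low. Over all listed nucleosomes of other genes, the median fuzziness (the standard deviation of read positions around a nucleosome) was 31.5 to 31.9 bp in wild type and 33.2, 32.5 and 32.3 bp in the 3 mutants.

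Ribosomal protein genes carried fewer nucleosome reads per length than most genes, and this was seen in all 6 pools. The median over the 137 coding regions was 713, 758 and 738 reads per kb in WT1, WT2 and WT3 and 735, 738.8 and 743 in the 3 mutants. Over all 6002 genes the medians lay between 876 and 902 reads per kb. Ranked by the wild-type mean among all genes, 50 of the 137 fell in the lowest 10% and 98 in the lowest 25%. Genes of the mitochondrial ribosome, which a separate transcription program controls, were taken by symbol as MRPL, MRPS or RSM with a number. Any with other names are left out. These 54 genes had medians of 876 to 925 reads per kb, close to those of all genes.

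Within the family the stalk genes were lowest and the large subunit highest in wild type. Medians in WT1, WT2 and WT3 were 545, 547 and 571 reads per kb for the 5 stalk genes, 695, 753 and 718 for the small subunit and 740, 775 and 759 for the large subunit. The order of the 2 subunits held in all 3 wild-type pools, but Ioc3-R739E/R742E (765 small, 738 large) and Ioc3-Q251K/D252K (747 small, 735 large) had the small subunit higher. The single-copy genes, whose reads cannot be confused with those of a second copy, had medians of 706, 798 and 747 reads per kb in wild type, against 716, 752 and 733 for the duplicated ones.

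The lowest members were RPS15, RPP1A, RPS29B and RPL26B. All reads of an entry were counted in a coding region or upstream stretch if its summit lay inside, and none otherwise. A small shift of a summit near an edge can therefore move all reads of an entry in or out of a short gene. The part this has in differences between pools or copies, here and below, was not tested. RPS15, a protein of the head of the small subunit, held 345, 378 and 366 reads per kb in wild type and 352, 378 and 361 in the 3 mutants, with the groups overlapping. RPP1A, a stalk protein, held 399, 427 and 502 in wild type, 237 in Ioc3-KO, 433 in Ioc3-R739E/R742E and 380 in Ioc3-Q251K/D252K. RPL26B held 488, 441 and 510 in wild type, 416 in Ioc3-KO, 706 in Ioc3-R739E/R742E and 438 in Ioc3-Q251K/D252K, so 1 mutant pool stood above and the others just below wild type.

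The highest members were very short. RPL41A and RPL41B, of 78 bp each, encode the smallest ribosomal protein. RPL41A held 1872 to 2167 reads per kb in wild type, and RPL41B held 1654 and 1731 in WT1 and WT2 but is listed at 0 in WT3, where no summit fell inside its coding region. RPL29, of 180 bp, held 1139, 1261 and 1250 in wild type, 1144 in Ioc3-KO, 738.9 in Ioc3-R739E/R742E and 1372 in Ioc3-Q251K/D252K.

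Upstream regions differed from those of other genes by more than coding regions did. The 600 bp before the start codon held a median of 269, 257 and 253 reads in wild type and 286, 266 and 269 in the 3 mutants, against 419.5 to 458 over all genes. By this measure 78 of the 137 fell in the lowest 10% of genes and 113 in the lowest 25%.

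RPS16B, which shares a divergent promoter with RPL13A, had the fewest upstream reads, with 57, 37 and 54 in wild type and 53, 85 and 46 in the 3 mutants. RPL33B followed with 52, 110 and 35 in wild type and 118, 79 and 116 in the mutants in the same order. RPS22A and RPL39 start in opposite directions 630 bp apart and have the same entries upstream, with 101, 81 and 89 reads in wild type and 74, 91 and 90 in the mutants. In all, 5 pairs of ribosomal protein genes share some of their 600 bp upstream, to unequal extents. These are RPS16B with RPL13A (566 bp), RPL24A with RPL30 (44 bp), RPS22A with RPL39 (570 bp), RPL13B with RPS16A (480 bp), and RPS15 with RPP2A (481 bp).

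At the upper end RPL21B, RPL22B, RPL7B and RPS4B had upstream reads like those of ordinary genes. RPL21B held 523, 516 and 521 in wild type and 505, 509 and 497 in the mutants, the closest agreement among these 4. RPL22B held 545, 518 and 470 in wild type and 568, 555 and 506 in the mutants. RPS4B held 440, 447 and 496 in wild type, 437 in Ioc3-KO, 374 in Ioc3-R739E/R742E and 266 in Ioc3-Q251K/D252K.

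**Figure D1:**
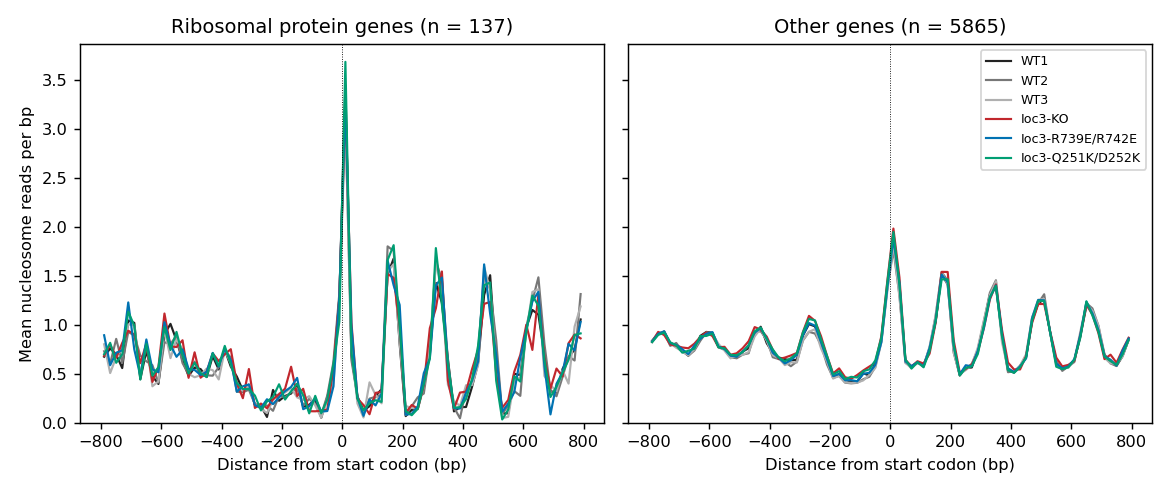
Mean nucleosome reads per bp and gene (y) against distance from the start codon in bp (x, bins of 20 bp), each entry's reads being placed at its summit, for 137 ribosomal protein genes (left) and 5865 other genes (right), with 1 line per pool. Ribosomal protein genes show 0.229 to 0.269 reads per bp from 300 to 100 bp before the start codon, where other genes show 0.623 to 0.709, and the bin just after the start codon holds 3.11 to 3.69 reads per bp against 1.77 to 1.98.

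The plot of reads around the start codon shows the low upstream stretch and a tall, narrow peak at the start codon. Since reads are placed at summits, its shape reflects how closely summits line up across genes, not the width of a nucleosome. From 300 to 100 bp before the start codon, members averaged 0.229, 0.229 and 0.239 reads per bp in WT1, WT2 and WT3, and 0.269, 0.248 and 0.261 in the 3 mutants. Other genes averaged 0.660, 0.623 and 0.628 in wild type and 0.709, 0.665 and 0.697 in the mutants. All 3 mutant pools lay above all wild-type pools in both sets of genes. From the start codon to 400 bp after it, members averaged 0.717 to 0.743 reads per bp in wild type and 0.740 to 0.760 in the mutants.

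The deposited lists nevertheless place entries in these upstream stretches, and some of those are weak. An entry is called weak here when its peak height is under 25% of the pool's median. Weak entries were 16.4%, 19.0% and 17.5% of the members' entries in WT1, WT2 and WT3, against 4.83%, 5.26% and 5.34% of all entries. A weak entry lay in the 400 bp before the start codon of 111, 117 and 112 of the 137 genes in wild type and of 110, 109 and 103 in the 3 mutants. Over all genes the share with one was 41.6% to 46.0%, against 75.2% to 85.4% of members. The weakest entry there had a median height of 10.2% to 14.3% of the pool's median in members.

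What counts as the first nucleosome differed with and without these weak entries. A depleted region was defined as the widest gap of at least 200 bp between neighbouring dyads (nucleosome centres shared by the pools) with its middle between -400 and 50 bp relative to the start codon. With every entry kept, 41 members had such a region with both flanks in every pool. Its median width was 223, 224 and 230 bp in wild type and 237, 235 and 234 in the mutants, against 239 to 242 bp over 1941 genes. Its +1 flank lay at a median of 131 to 146 bp before the start codon in wild type, where all genes had a median of 18 bp before it.

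With weak entries left out, which was decided after the data were seen, the picture is that of a wide gap. Of the 137 members, 116 then had a depleted region, and 70 had both flanks in every pool. The median distance from the -1 to the +1 dyad was 391, 387 and 392.5 bp in WT1, WT2 and WT3 and 393, 392.5 and 387.5 bp in the 3 mutants. Over 4485 genes it was 270 to 272 bp. Of the 70 members, 58 had a gap in the widest 10% of genes and 63 in the widest 25%. The 14 single-copy members had medians of 405, 411 and 416 bp in wild type, and the 56 duplicated ones 388, 385.5 and 389.5 bp.

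**Figure D2:**
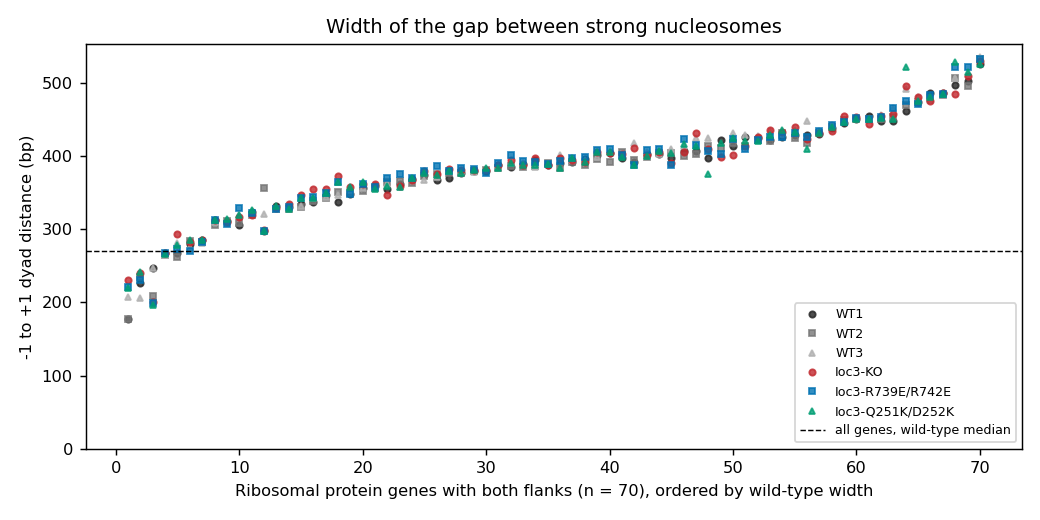
Distance in bp between the dyads that flank the depleted region (y) for the 70 ribosomal protein genes with both flanks in every pool, weak entries left out, ordered by their wild-type mean (x), with 1 symbol per pool. The pools of a gene lie close together while genes range from 187 to 531 bp in wild-type mean, and the dashed line marks the wild-type median of all genes.

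Genes differed far more in gap width than pools did. RPL27B had the widest gap, with 526, 533 and 535 bp in wild type and 530, 532 and 525 bp in the 3 mutants. RPL20B (503, 496 and 512 bp in wild type), RPS24B (497, 506 and 506 bp) and RPS7B (486, 483 and 486 bp) came next. RPL3, a core protein near the peptidyl transferase centre, had 388, 384 and 387 bp in wild type and 388, 390 and 384 bp in the mutants. RPL28, the target of cycloheximide, had 422, 420 and 434 bp in wild type, and RPP0, the scaffold of the stalk, had 311, 311 and 310 bp. RPS28A had 332, 328 and 328 bp. RPL30 had no gap with both flanks in every pool once weak entries were left out. With every entry kept it had one, with a wild-type mean of 276 bp.

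The narrowest gaps belonged to RPS26A, RPL39, RPL32 and RPL35A. RPS26A had 177, 177 and 208 bp in wild type and 231, 221 and 219 bp in the mutants, so the mutant pools were all above wild type. RPL32 had 247, 209 and 247 bp in wild type and 201, 199 and 197 bp in the mutants, so the mutant pools were all below wild type. RPL35A had 265 to 267 bp in wild type and 266 to 268 bp in the mutants.

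No width difference of a member passed the test in any genotype. By limma with Benjamini-Hochberg adjustment over 4485 genes with weak entries left out, 0 of 70 members were called in Ioc3-KO, Ioc3-R739E/R742E, Ioc3-Q251K/D252K or the 3 Ioc3 pools together, with 7, 7, 5 and 11 members at an unadjusted p under 0.05. The background over all genes was 0% in each genotype and 0.156% for the 3 pools together. At an unadjusted p under 0.05 there were 395, 421, 314 and 580 of the 4485 genes. Background percentages here and below are of adjusted calls, so counts at an unadjusted p are not to be set against them. Some counts at an unadjusted p below stand without the number over all genes. Those do not show whether members differ from other genes. With every entry kept, 0 of 41 were called, where all genes had 0% called in each genotype and 0.0515% for the 3 pools together. At an unadjusted p under 0.05 there were 3, 4, 4 and 4 members, and 185, 164, 142 and 204 of 1941 genes. The median difference from wild type over the 70 members was 2, 2.33 and 1.83 bp in the 3 mutants, within the range of the wild-type pools against each other (-2 to 3 bp). Over the 41 members with every entry kept it was 11.3, 7.33 and 9 bp, outside the wild-type range of -2 to 2 bp, where all 1941 genes had 2, 2.33 and 1.33 bp.

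Reads inside the gaps were higher in every mutant pool than in every wild-type pool. Summed over the gaps of the 116 members they came to 2294, 2154 and 2548 in WT1, WT2 and WT3, 3215 in Ioc3-KO, 2766 in Ioc3-R739E/R742E and 2802 in Ioc3-Q251K/D252K. The groups did not overlap. The gaps of all 4860 genes did the same, with 61685, 53781 and 63078 reads in wild type and 79028, 72822 and 68760 in the mutants, and members held 3.72% to 4.08% of those reads in each pool. By edgeR's quasi-likelihood test over 2303 gaps with at least 60 reads, 0 of 92 members were called in any genotype (background 0%). At an unadjusted p under 0.05 there were 3, 3 and 1 members in the 3 mutants, and 166, 143 and 152 of the 2303 gaps.

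The single nucleosomes that passed the test in these stretches rest on few reads. In 1 limma fit over 61583 dyads, added after the data were seen, 7 of 1000 member dyads were called higher for the 3 Ioc3 pools against the 3 wild-type pools (background 0.323% of all dyads, and 0.7% of the members'). They lay upstream of RPL4A, RPL8B, RPS31, RPL34A, RPL23B and RPL19B, and at the end of RPL22A. All encode large subunit proteins except RPS31, whose product is made as a fusion with ubiquitin.

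**Figure D3:**
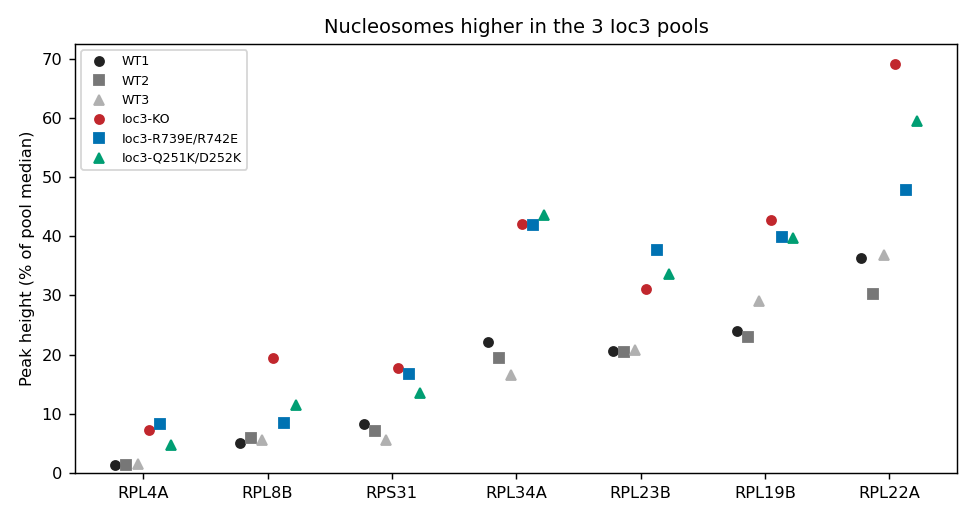
Peak height in percent of the pool's median (y) of the 7 dyads in or before ribosomal protein genes called higher in the 3 Ioc3 pools than in the 3 wild-type pools by limma, with 1 symbol per pool and genes on x. For each the 3 Ioc3 symbols lie above the 3 wild-type symbols, and the wild-type heights run from 1.39% to 36.9%.

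The entry upstream of RPL34A had the second smallest adjusted p of these 7. It lay 162 to 175 bp before the start codon in wild type (gene on chromosome V, 269423 to 270185, minus strand) and held 34, 32 and 27 reads in WT1, WT2 and WT3, 54 in Ioc3-KO, 48 in Ioc3-R739E/R742E and 50 in Ioc3-Q251K/D252K. Its height was 22.1%, 19.4% and 16.5% of the pool median in wild type and 42.1%, 41.8% and 43.5% in the mutants, which do not overlap. The log2 difference was 1.15 with a standard error of 0.117, and the adjusted p was 0.00522 (limma, 3 pools against 3).

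The largest difference was that of RPL4A (chromosome II, 300166 to 301254, plus strand), at a log2 difference of 2.20 and an adjusted p of 0.000555 by limma. Its upstream entry held only 2, 11 and 3 reads in WT1, WT2 and WT3 and 10, 7 and 7 in the mutants, so the read numbers overlap while the heights (1.39%, 1.40% and 1.47% against 7.26%, 8.24% and 4.68%) do not. RPL8B held 5, 8 and 8 reads in wild type and 24, 11 and 16 in the 3 mutants, with a log2 height difference of 1.17. RPS31 held 16, 7 and 8 reads in wild type and 25, 28 and 20 in the mutants, with a difference of 1.21. RPL23B held 38, 32 and 33 reads in wild type and 43, 52 and 55 in the mutants, with a difference of 0.72. RPL22A, the only one inside a coding region, held 55, 51 and 73 reads in wild type and 105, 75 and 95 in the mutants.

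Against single genotypes the same fit called 7 member dyads in Ioc3-KO, all higher (background 0.245%), 1 in Ioc3-R739E/R742E (0.0211%) and 12 in Ioc3-Q251K/D252K, of which 10 were higher (0.898%). The 1 in Ioc3-R739E/R742E was RPL4A. In Ioc3-Q251K/D252K the 2 lower ones were RPL31B, at a log2 difference of -1.39, and RPS1A, at -0.75. The numbers depend on the wild-type pools: without WT1, WT2 or WT3 the counts were 33, 22 and 27 in Ioc3-KO, 5, 10 and 12 in Ioc3-R739E/R742E and 44, 30 and 39 in Ioc3-Q251K/D252K. For the 3 Ioc3 pools together they were 14, 4 and 4 without WT1, WT2 and WT3, 2 without Ioc3-KO and 13 without Ioc3-R739E/R742E. With peak heights not centred on the pool median that count was 3. Counts with a pool left out, here and below, are given without the share over all features in the same fit. The same holds for the count of 3 with heights not centred. They show only how far the calls depend on single pools or on the scaling, and nothing that sets members apart.

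Median heights at weak upstream dyads differed from wild type by similar amounts in members and in all genes. At 104 weak dyads before start codons of members the median log2 height difference from wild type was 0.51 in Ioc3-KO, 0.30 in Ioc3-R739E/R742E and 0.40 in Ioc3-Q251K/D252K, and over 1218 such dyads of all genes it was 0.55, 0.34 and 0.42. The wild-type pools against each other spanned -0.13 to 0.20 in members. The weak class is itself defined by low height. At the 244 other dyads before start codons of members the median differences were 0.19, 0.07 and 0.13 in the 3 mutants, with -0.07 to 0.10 among wild-type pools, and over 11413 such dyads of all genes they were 0.22, 0.09 and 0.15. At 652 dyads inside coding regions of members the median differences were 0.03, 0.02 and 0.00. All these heights are taken over the pool's median height, which was 1.44, 1.47 and 1.45 in WT1, WT2 and WT3 and 1.34, 1.40 and 1.40 in the mutants. A lower pool median raises these differences, and the medians without this centring were not worked out.

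Past the gap the first strong nucleosome sat on the start codon. The +1 dyad of 82 members lay at a median of 1, 1 and 4 bp after the first base of the start codon in WT1, WT2 and WT3, and at 3.5, 3 and 4 bp in the 3 mutants. It was within 20 bp of that base in 54, 56 and 54 of the 82 in wild type and in 51, 52 and 54 in the mutants. Over 4730 genes it lay 11 to 12 bp before, and 36.6% to 37.4% were within 20 bp, against 62.2% to 68.3% of members. The -1 dyad of 102 members lay at a median of 427 to 437 bp before the start codon in wild type, against 294 bp over all genes.

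The numbered dyads behind the first nucleosome were closer together than in other genes, and fuzziness at +2 was higher. Numbering stopped at the stop codon, so a short gene has a +3 to +5 dyad only where it lies close enough. Members with a dyad matched in every pool went from 105 at +2 to 76 at +5, and all genes from 4635 to 3710. The part this has in the spacing was not tested. Medians in wild type were 149 to 151 bp for the +2 dyad, 299 to 303 bp for +3, 444 to 463 bp for +4 and 595 to 605 bp for +5. Over all genes they were 154, 315 to 316, 475 to 477 and 635 to 637 bp. The distance from +2 to +4, taken per nucleosome, had medians of 158, 158 and 156 bp in wild type over 86 members and 164 to 164.5 bp over 4084 genes. Fuzziness at +2 was 28.8, 28.4 and 29.6 bp in wild type against 23.3 to 23.8 bp over all genes, and 31.8, 30.8 and 30.2 bp in the 3 mutants. The log2 height over the pool median at +3 was -0.47, -0.36 and -0.48 in wild type, against 0.32 to 0.33 over all genes. Members' entries also hold fewer reads (a median of 98 to 104 in wild type against 137 to 139), and the part this has in their fuzziness was not tested.

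In Ioc3-KO the dyads of all genes stood slightly downstream of wild type at +2 and +3, and those of members did so less. With downstream as positive, the median difference from wild type over members was 1.67 bp (+2), 0 bp (+3), -4 bp (+4) and -2.33 bp (+5). Over all genes it was 2.67, 3, 1.67 and 0 bp. Each wild-type pool against the other pair gave member medians from -1 to 1 (+2), -1 to 1.5 (+3), -2 to 1.5 (+4) and -1.25 to 3.25 bp (+5). The distance from +2 to +4 per nucleosome differed by a median of -2.83 bp in Ioc3-KO, -1.25 bp in Ioc3-R739E/R742E and -0.50 bp in Ioc3-Q251K/D252K over members, with -1.50 to 1.88 bp among wild-type pools, and by -0.67, -0.50 and -0.50 bp over all genes.

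Few single nucleosomes of members moved by the test. With every entry kept and summed over -1 and +1 to +5, limma called 2 of 298 member nucleosomes in Ioc3-KO (background 1.32%), 1 in Ioc3-R739E/R742E (0.143%), 1 in Ioc3-Q251K/D252K (0.0717%) and 0 for the 3 Ioc3 pools together (0.152%, with 33 of the members' at an unadjusted p under 0.05). With weak entries left out it called 4 of 553 in Ioc3-KO (1.35%) and 0 in Ioc3-R739E/R742E (0.0343%), Ioc3-Q251K/D252K (0.0381%) and the 3 together (0.0648%), with 75, 64 and 73 at an unadjusted p under 0.05. The fit over all dyads called 5 of 1000 member dyads in position in Ioc3-KO (1.26%), and 0 there when any 1 wild-type pool was left out. For the 3 together it called 0 (0.167%), with 90 member dyads and 7515 of all 61583 dyads at an unadjusted p under 0.05. None of these position calls in a single genotype, with every entry kept or with weak entries left out, passed when any 1 wild-type pool was left out, a fit with 1 residual degree of freedom.

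RPL36B, a large subunit gene (chromosome XVI, 75699 to 76239, minus strand), was called in 2 genotypes. Its dyad near the start codon, numbered +3 with every entry kept, lay at -57, -52 and -54 bp in WT1, WT2 and WT3, at 12 bp in Ioc3-KO, at 11 bp in Ioc3-R739E/R742E and at -56 bp in Ioc3-Q251K/D252K. The knockout and Ioc3-R739E/R742E pools thus stood apart from the rest, at 66.3 and 65.3 bp downstream of the wild-type mean (standard error 2.51 bp, adjusted p 0.0169 and 0.0473 by limma). Both differences are close to the limit of 70 bp within which a summit was matched to a dyad, and at a limit of 50 bp neither was called. The mean read position was -47.2, -39.8 and -41.1 bp in wild type and -0.93, 0.84 and -49.7 bp in the mutants, a smaller difference in the same direction.

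RPL23B (chromosome V, 396769 to 397653, plus strand), encoding a large subunit protein, had its +3 dyad at 311, 309 and 308 bp in wild type, 286 bp in Ioc3-KO, 303 bp in Ioc3-R739E/R742E and 311 bp in Ioc3-Q251K/D252K. The knockout alone was called (-23.3 bp, standard error 1.69 bp, adjusted p 0.0410 by limma). RPL31B (chromosome XII, 931065 to 931755, minus strand) had its dyad numbered -1 with every entry kept at -122, -123 and -120 bp in wild type, -130 bp in Ioc3-KO, -135 bp in Ioc3-R739E/R742E and -183 bp in Ioc3-Q251K/D252K. All 3 mutants lay upstream of wild type, and Ioc3-Q251K/D252K was called at -61.3 bp (adjusted p 0.0397). That is close to the matching limit of 70 bp as well, and at a limit of 50 bp no member position was called in that genotype. Its height was 66.2%, 70.3% and 71.7% of the pool median in wild type and 49.0%, 51.5% and 26.5% in the mutants in the same order. With weak entries left out it was numbered +1 and was the member nucleosome with the smallest adjusted p for height (log2 difference -1.39, adjusted p 2.74e-07 by limma in Ioc3-Q251K/D252K), a value that rests on the same matched entry.

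With weak entries left out, the +3 dyad of RPL4A joined the calls in Ioc3-KO, at 333, 339 and 337 bp in wild type and 368, 343 and 329 bp in the mutants. RPL42B did as well, with a difference of 13.7 bp in Ioc3-KO. RPL4A and RPL42B each have a second copy with a near-identical coding sequence, so reads may have been split between copies.

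Heights of numbered nucleosomes were called at about the rate of all genes. With weak entries left out, limma called 11 of 553 member nucleosomes in Ioc3-KO (7 higher; background 2.04%), 1 in Ioc3-R739E/R742E (0.0419%), 11 in Ioc3-Q251K/D252K (8 higher; 1.71%) and 22 for the 3 Ioc3 pools together (20 higher; 4.14%). The counts depend on single pools: without WT1, WT2 and WT3 they were 24, 9 and 12 in Ioc3-KO, 0, 0 and 3 in Ioc3-R739E/R742E, and 37, 6 and 5 for the 3 together. The last was 1 without Ioc3-KO and 6 without Ioc3-Q251K/D252K. Of the 22, 14 were -1 nucleosomes, which is 14 of 102 tested against 11.9% of all genes. RPL40A, another ubiquitin fusion gene, had a log2 height at -1 of -0.29, -0.46 and -0.37 in wild type and of 0.58, 0.09 and 0.01 in the 3 mutants. RPS24B fell at +1 in Ioc3-KO, from 0.06, 0.13 and -0.11 in wild type to -0.65, a log2 difference of -0.68. With every entry kept, 0 of 298 were called in Ioc3-KO (0.367%), 0 in Ioc3-R739E/R742E (0.0179%), 1 in Ioc3-Q251K/D252K (0.923%) and 1 for the 3 pools together (0.367%), and 59, 36, 51 and 58 had an unadjusted p under 0.05. With heights not centred on the pool median 4 were called in Ioc3-KO, 1 higher and 3 lower, and 1 lower for the 3 together. Over all genes the Ioc3-KO calls went from 30 higher of 41 to 11 higher of 109, so the direction of height calls there depends on the scaling. With centring the call for the 3 together was RPL23B at -1, and the 1 in Ioc3-Q251K/D252K was RPS0A at +4. Testing each wild-type pool against the other pair, with every entry kept, also called members in height. These were in WT2 and in WT3 but not in WT1, so a few height calls alone do not set a mutant pool apart. Without WT1, WT2 or WT3 the counts were 5, 8 and 6 in Ioc3-KO, and 5, 10 and 10 for Ioc3-Q251K/D252K. Leaving out WT2 gave 4 and leaving out WT3 gave 1 for Ioc3-R739E/R742E. For the 3 pools together the count was 6 without WT1, 2 without Ioc3-R739E/R742E and 0 without WT3, Ioc3-KO or Ioc3-Q251K/D252K.

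The measure with the most calls among these genes was the fuzziness of their coding regions, which was also higher over the rest of the genome. The mean fuzziness over coding regions with at least 3 dyads could be computed for 121 members. Its median was 31.9, 31.5 and 31.9 bp in WT1, WT2 and WT3, 33.6 bp in Ioc3-KO, 33.3 bp in Ioc3-R739E/R742E and 33.0 bp in Ioc3-Q251K/D252K. All 3 mutant pools lay above all wild-type pools. Over all 5354 genes the medians were 29.9, 29.5 and 29.9 bp in wild type and 31.4, 30.5 and 30.2 bp in the mutants.

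In Ioc3-KO, limma called 36 of 121 members, 35 higher and 1 lower, against 28.1% of all genes called and 27.7% called higher. The count was 32 to 43 when 1 pool was left out at a time. It was 0 once each pool was centred on its median difference over all genes, an alternative added after the data were seen, with 25 members at an unadjusted p under 0.05, and 8 of 5354 genes were then called. The rises and falls named below are therefore of values as deposited, and none was told apart from the shift of the whole pool. The calls were spread over the family, with 23 of 72 genes of the large subunit, 12 of 47 of the small subunit and 1 of 2 stalk genes. The median difference from wild type was 1.49 bp over members and 1.46 bp over all genes. In Ioc3-R739E/R742E and Ioc3-Q251K/D252K the medians over members were 1.05 and 0.89 bp against 0.66 and 0.42 bp over all genes. In both, 0 members were called by limma (background 0%). At an unadjusted p under 0.05 there were 35 and 29 of the 121 members, and 869 and 613 of 5354 genes. For the 3 Ioc3 pools together 0 were called (background 0%), with 46 members and 1442 of all genes at an unadjusted p under 0.05. The number of members called there was 12 without Ioc3-Q251K/D252K. Leaving out WT1 gave 2 for Ioc3-R739E/R742E.

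**Figure D4:**
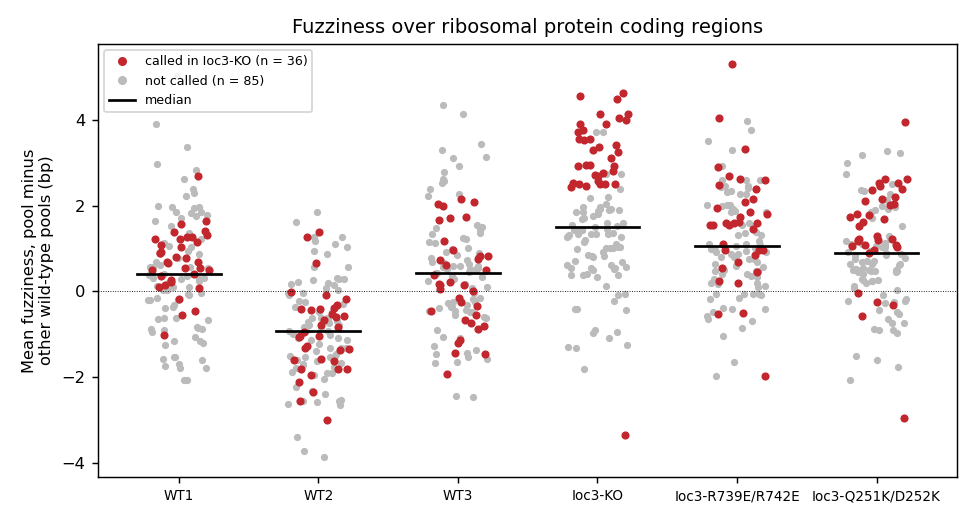
Mean fuzziness of each of 121 ribosomal protein coding regions, as the difference in bp between a pool and the other wild-type pools (y), by pool (x), with a bar at the median. Red points are the 36 genes called in Ioc3-KO, where the median is 1.49 bp, and the wild-type medians are 0.40, -0.94 and 0.43 bp.

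Wild-type pools also differed in this measure, and more so in members. Against the other pair, WT1 had a median of 0.40 bp, WT2 of -0.94 bp and WT3 of 0.43 bp over members, and of 0.08, -0.32 and 0.24 bp over all genes. The difference between genotypes was tested as well. No member was called between Ioc3-KO and Ioc3-R739E/R742E (background 0.0187%), between Ioc3-KO and Ioc3-Q251K/D252K (0.0187%) or between Ioc3-R739E/R742E and Ioc3-Q251K/D252K (0%). In these 3 limma contrasts 17, 16 and 8 members had an unadjusted p under 0.05, as had 760, 1114 and 300 of 5354 genes.

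RPP0, on which the stalk is built (chromosome XII, 805887 to 806825, plus strand), had the largest increase. Its mean fuzziness was 30.8, 29.5 and 29.3 bp in WT1, WT2 and WT3, 34.5 bp in Ioc3-KO, 30.8 bp in Ioc3-R739E/R742E and 32.2 bp in Ioc3-Q251K/D252K. It rose by 4.62 bp in Ioc3-KO (standard error 0.780 bp, adjusted p 0.01004 by limma), and the knockout lay above every other pool. RPS17A, of the small subunit, went from 31.5, 29.5 and 31.2 bp in wild type to 35.3 bp in Ioc3-KO, with 33.2 and 32.3 bp in Ioc3-R739E/R742E and Ioc3-Q251K/D252K. Its second copy RPS17B was also called, at 33.7, 32.7 and 34.4 bp in wild type and 37.2 bp in Ioc3-KO.

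The other large increases in Ioc3-KO were 4.49 bp in RPL42B, 4.15 bp in RPS9B, 4.14 bp in RPL20B, 4.03 bp in RPL11B, 4.001 bp in RPL8B and 3.90 bp in RPS3. RPS3, which lies at the entry of the mRNA channel, had 32.1, 29.3 and 32.4 bp in wild type and 35.1, 34.6 and 33.9 bp in the mutants. RPS9B, whose protein acts in decoding accuracy, had 26.6, 25.9 and 28.4 bp in wild type and 31.1, 29.6 and 29.4 bp in the mutants, with all mutants above wild type. RPL17A, at the nascent chain exit, rose by 3.89 bp in Ioc3-KO, with 30.3, 29.8 and 30.1 bp in wild type and 34.0, 30.3 and 31.3 bp in the mutants. RPL30, whose protein binds its own transcript, rose by 2.51 bp (adjusted p 0.0299 by limma). RPL3 and RPL28 were not called in Ioc3-KO, with differences of 1.01 and 1.60 bp and adjusted p of 0.254 and 0.0995 by limma.

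RPL32 (chromosome II, 45978 to 46370, plus strand) was the only member called lower. Its mean fuzziness was 40.5, 39.2 and 38.4 bp in wild type, the highest of all members, and 36.0, 37.4 and 36.4 bp in the 3 mutants. It fell by 3.36 bp in Ioc3-KO (adjusted p 0.0236 by limma), and all 3 mutants lay below wild type. RPL40B had the lowest fuzziness in wild type, with 25.1, 24.5 and 24.4 bp, and rose by 3.42 bp in Ioc3-KO.

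At single numbered nucleosomes with every entry kept, limma called fuzziness in 8 of 298 in Ioc3-KO, 7 higher and 1 lower (background 2.02%), 0 in Ioc3-R739E/R742E (0.0537%, with 41 at an unadjusted p under 0.05), 1 in Ioc3-Q251K/D252K (0.0358%) and 0 for the 3 together (0.0627%, with 49). With each pool centred on its median difference, 1 member was called in Ioc3-KO, a decrease, and over all genes the calls went from 226 (216 higher) to 27 (12 higher), so none of the increases named here passed. With weak entries left out the counts were 18 of 553 in Ioc3-KO (3.39%), 3 in Ioc3-R739E/R742E (0.0419%), 0 in Ioc3-Q251K/D252K (0.00762%, with 68 at an unadjusted p under 0.05) and 3 for the 3 together (0.126%). Without WT1, WT2 and WT3 these were 5, 3 and 3 in Ioc3-R739E/R742E, 6, 2 and 0 in Ioc3-Q251K/D252K, and 2, 0 and 0 for the 3 together, which had 1 without Ioc3-KO or Ioc3-R739E/R742E and 6 without Ioc3-Q251K/D252K. RPL38 had 27.9, 28.5 and 28.4 bp at +3 in wild type, 38.1 bp in Ioc3-KO, 33.6 bp in Ioc3-R739E/R742E and 29.5 bp in Ioc3-Q251K/D252K, a rise of 9.80 bp in the knockout (adjusted p 0.0122 by limma). RPL17A had 26.4, 26.7 and 25.6 bp at +3 in wild type and 35.2, 26.7 and 31.1 bp in the mutants, and it was called at +4 as well. RPL5, which carries 5S rRNA, had 31.3, 29.6 and 32.2 bp at +4 in wild type and 39.2, 34.2 and 27.3 bp in the mutants. RPS3 and RPS0B at +4 and RPS23B at +5 also rose in Ioc3-KO. With every entry kept, each wild-type pool was also tested against the other pair, a fit with 1 residual degree of freedom. Member nucleosomes were called in fuzziness there too, in WT1 and in WT2 but not in WT3. A few fuzziness calls alone therefore do not set a mutant pool apart. With every entry kept the counts were 2, 1 and 1 in Ioc3-R739E/R742E without WT1, WT2 and WT3, 2 in Ioc3-Q251K/D252K without WT1, and 1 for the 3 together without WT1 or Ioc3-Q251K/D252K.

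The 1 decrease in Ioc3-KO was RPL7B at +4, with 35.6, 34.6 and 35.2 bp in wild type and 28.2, 33.3 and 35.9 bp in the mutants. That entry held 102, 106 and 113 reads in wild type and 65, 110 and 111 in the mutants, so the knockout was lower in reads too. The 1 call in Ioc3-Q251K/D252K was RPL13B at -1, where the entry held 2 reads against 4, 6 and 8 in wild type, and its fuzziness of 2.5 bp there describes those 2 reads only. The fit over all dyads called 3 lower in Ioc3-Q251K/D252K (0.0227%), in RPL13B, RPS10B and RPL1A, and 0 of 1000 in Ioc3-KO (0.00325%). In Ioc3-KO 138 member dyads and 9812 of all 61583 dyads had an unadjusted p under 0.05. Without WT1, WT2 and WT3 the counts were 4, 11 and 8 in Ioc3-Q251K/D252K, with 0, 11 and 3 in Ioc3-KO.

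Total reads of members did not differ by the test. In the coding regions edgeR's quasi-likelihood test called 0 of 137 members in Ioc3-KO (background 0.0837%), Ioc3-R739E/R742E (0%), Ioc3-Q251K/D252K (1.02%) and the 3 together (0.1%). At an unadjusted p under 0.05 there were 23, 14, 13 and 17 members, and 736, 349, 567 and 663 of 5972 genes. DESeq2 called 0 (background 0.435%), 0 (0.0502%), 0 (1.27%) and 1 (0.469%), the last being RPS26A. Its coding region held 422, 614 and 536 reads per kb in wild type and 750, 875 and 847 in the 3 mutants. In the 600 bp upstream edgeR called 0 of 137 in Ioc3-KO (0%), Ioc3-R739E/R742E (0%), Ioc3-Q251K/D252K (0.467%) and the 3 together (0.4%). An unadjusted p under 0.05 was seen in 7, 9, 9 and 9 members, and in 626, 362, 575 and 689 of 5996 genes. There DESeq2 called 0 (background 0.167%), 0 (0.0834%), 1 (0.784%) and 1 (1.07%). These were RPS4B lower in Ioc3-Q251K/D252K (values above) and RPL36B lower for the 3 together. RPL36B held 378, 364 and 390 reads in wild type and 288, 274 and 325 in the mutants.

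The copies of duplicated genes were compared in reads per kb, with entries counted by their summits as above. Over 59 pairs the median absolute log2 ratio of reads per kb between copies in wild type was 0.20, with 9 pairs over 0.5 and 19 under 0.1. The same copy was higher in all 6 pools in 28 pairs. RPL9A and RPL9B had a log2 ratio of -0.66, -0.75 and -0.62 in wild type and of -0.40, -0.26 and -0.53 in the 3 mutants. RPS6A and RPS6B, the copies of a protein phosphorylated on TOR signalling, had -0.61, -0.77 and -0.62 in wild type and -0.77, -0.31 and -0.37 in the mutants. RPL6A and RPL6B had 0.37, 0.79 and 0.80 in wild type and 0.30, 0.47 and 0.26 in the mutants. RPS25A and RPS25B, with a mean near 0, ranged from -0.31 to 0.57 between wild-type pools, so a small mean there does not show close copies.

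**Figure D5:**
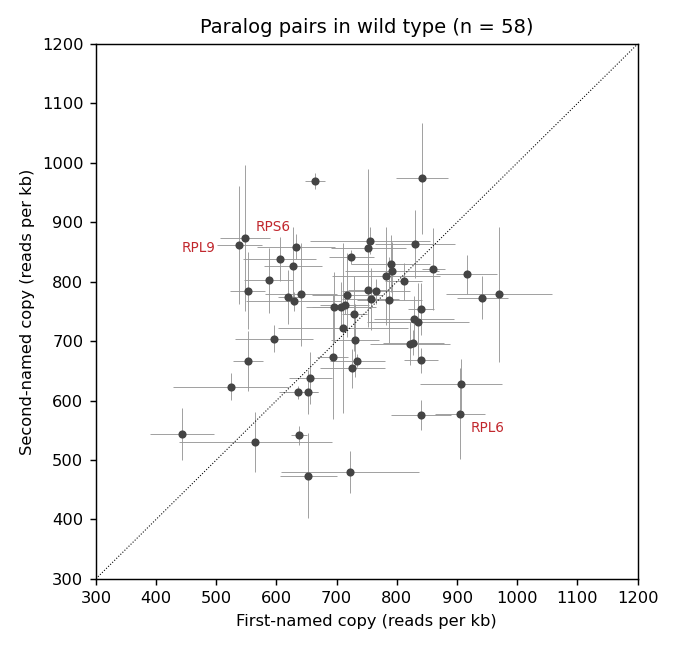
Nucleosome reads per kb of coding region in wild type (mean, with bars of 1 SD over 3 pools) for the first-named copy (x) and the second-named copy (y) of 58 pairs, with a dotted line at equality. The 78 bp pair RPL41A and RPL41B lies off the scale. Named are the 3 of these pairs with the largest ratio between copies, RPL9, RPS6 and RPL6.

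Gap widths separated some copies by more than the spread between pools. Both copies had a gap with weak entries left out in 16 pairs, with a median absolute difference of 35.8 bp. RPL35A and RPL35B differed by -171, -174 and -177 bp in wild type and by -167, -174 and -173 bp in the mutants. With every entry kept their wild-type mean widths were 266 and 218 bp, a difference of 47.3 bp. The sign of the difference in this pair thus depends on the weak entries. RPL15A and RPL15B differed by 102 to 108 bp in every pool. RPL7A and RPL7B had nearly the same mean width but ranged from -25 to 21 bp between wild-type pools. RPL12A and RPL12B differed by 4, 1 and 9 bp in wild type and by 4, 15 and 16 bp in the mutants.

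A list of 28 genes that act on ribosomal protein genes or their products was read in the same way, covering transcription and signalling factors, chaperones of ribosomal proteins and factors bound to ribosomes. In coding-region fuzziness limma called 7 of 28 higher and 0 lower in Ioc3-KO, against 28.1% of all genes, with a median difference of 1.69 bp. They were CRF1, a corepressor of ribosomal protein genes, FHL1, ESA1, a histone acetyltransferase, NAP1, a histone chaperone, and BCP1, RRB1 and SQT1, dedicated chaperones of ribosomal proteins. FHL1 had 31.8, 31.4 and 32.1 bp in wild type and 34.5, 33.0 and 32.6 bp in the 3 mutants, with all mutants above wild type. In wild type the list had a median of 853 reads per kb of coding region, a median gap of 307 bp over 22 genes with weak entries left out, and a median coding-region fuzziness of 27.9 bp.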

How the data were processed

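MNase-seq libraries of 12 yeast samples in 6 groups were used as the 6 lists of nucleosomes that the authors deposited, 1 per group with both biological replicates joined. Trimmomatic, Bowtie2, SAMtools and the build sacCer3 are named in the submitters' processing notes, with no versions. The program that called nucleosome positions is not given in the sources used here, nor is any scaling of the lists. Per the labels' protocols, chromatin was digested at 600, 1200 and 2400 gel units of nuclease per ml. Per the file headers, the deposited lists give for each nucleosome the summit, the mean and standard deviation of read positions in bp, a whole-number read count and a peak height, a signal whose scale is not stated.

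Members and lists were chosen with earlier results of these data known. Genes, strand and start codons came from a RefSeq gene table of assembly R64, introns included. Summits of the 6 pools were joined to consensus dyads (Gaussian SD 20 bp, at least 100 bp apart), and a pool's summit was matched within 70 bp. Dyads were numbered -1 and +1 to +5 from the depleted region, with steps under 220 bp and none past the stop codon. Position, fuzziness, log2 peak height over the pool median, width and coding-region fuzziness were tested with limma 3.58.1, and read counts with edgeR 4.0.16, in R 4.3.3, with p-values adjusted over all genes (Benjamini-Hochberg, threshold 0.05). DESeq2 1.42.0 was an alternative for counts. Each Ioc3 genotype is 1 pool, so its p-values rest on the spread of the 3 wild-type pools (2 residual degrees of freedom). Wild type against all 3 Ioc3 pools has 4. The fits were tested on simulated data. Members were named by rule: up to 8 called members per measure, genotype and direction, the 4 highest and 4 lowest in gap width and in reads per kb, the 4 pairs most and least alike, and 14 genes always. Others, such as those ranked by upstream reads or single-gene fuzziness in wild type, were chosen after their values were seen. Copies with near-identical sequence may share reads, since how multiply mapped reads were treated is not given in the sources used here. Some genes that the rule names are not reported here.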

Additional observations from a re-analysis of the deposited data

How the results depend on the processing

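All counts are of members called at an adjusted p under 0.05, in the order Ioc3-KO, Ioc3-R739E/R742E, Ioc3-Q251K/D252K and all 3 Ioc3 pools. Position counts of 2, 1 and 1 became 0, 0 and 0 when summits were matched within 50 bp, 1, 0 and 0 with the search window from -600 bp, 9, 2 and 0 with mean read positions, and 4, 0 and 0 with weak entries left out. Ioc3-KO and Ioc3-R739E/R742E had 5 and 2 with pools centred, and 5 and 2 with a robust fit. Fuzziness counts of 8, 0, 1 and 0 became 18, 3, 0 and 3 with weak entries left out. They were 1 in Ioc3-KO with pools centred, a decrease, so the 7 increases there were not called, 3 in Ioc3-Q251K/D252K with the wider window, and 0 there and 1 for all 3 pools with a robust fit. Height counts of 0, 0, 1 and 1 became 11, 1, 11 and 22 with weak entries left out. They were 1 in Ioc3-KO with the limit of 50 bp, 4 in Ioc3-KO and 2 in Ioc3-Q251K/D252K when not centred, 1 and 1 in Ioc3-KO and Ioc3-R739E/R742E with a robust fit, and 4 in Ioc3-Q251K/D252K with the wider window. Directions changed too: the height call in Ioc3-Q251K/D252K was higher, but lower with a robust fit, that for all 3 pools was higher, but lower when not centred, and of the 4 in Ioc3-KO when not centred 3 were lower. The 36 coding-region fuzziness calls in Ioc3-KO became 0 with pools centred. In the fit over all dyads, 7 height calls for all 3 pools became 3 when not centred. DESeq2 called 1 gene for all 3 pools in coding reads (0.469% of all genes), where edgeR called 0. Upstream it called 1 in Ioc3-Q251K/D252K (0.784%) and 1 for all 3 pools (1.07%), where edgeR called 0. The cause of these changes was not tested. Where no share over all genes stands beside a count here, it shows only how far calls depend on the setting. Such a count shows nothing that sets members apart.

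Leaving out 1 pool at a time gave 0 position calls in each genotype and 0 to 1 for all 3 pools. Fuzziness gave 10 to 12, 1 to 2, 1 to 2 and 0 to 1, height 5 to 8, 0 to 4, 5 to 10 and 0 to 6, width 0 in each genotype and 0 to 1 for all 3, and coding-region fuzziness 32 to 43, 0 to 2, 0 and 0 to 12. In the fit over all dyads, position gave 0 in each genotype and 0 to 3 for all 3, fuzziness 0 to 11, 0 to 8, 4 to 11 and 0 to 1, and height 22 to 33, 5 to 12, 30 to 44 and 2 to 14. Coding, upstream and gap reads gave 0 throughout. The share over all features is not given for these fits, so the counts show only how far calls depend on single pools. A lone Ioc3 pool is assumed to vary like the wild-type pools. No paired analysis was possible because each list joins both replicates of a group and carries no replicate number.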

Other observations

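CRF1 and BTT1, a subunit of the nascent polypeptide-associated complex, were called higher in coding-region reads in Ioc3-Q251K/D252K by edgeR's quasi-likelihood test. CRF1 held 1410, 1340 and 1384 reads in WT1, WT2 and WT3, 1437 in Ioc3-KO, 1402 in Ioc3-R739E/R742E and 2426 in Ioc3-Q251K/D252K. BTT1 held 473, 490 and 484 reads in wild type and 470, 526 and 850 in the mutants in the same order. Both lie in a stretch of chromosome IV, from 884727 to 986775, where 49 genes had raised reads in that pool. No ribosomal protein gene lies in it. It was found after the data were seen.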
